A study of Caenorhabditis elegans with 2 samples.

Results

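Transfer RNA genes that sit inside protein-coding gene bodies were examined for binding of GMEB-2-GFP in Caenorhabditis elegans. All nuclear genes of biotype tRNA in the Ensembl annotation of WBcel235, the assembly of build ce11, were taken. A gene was kept where its whole body lay inside the body of a protein-coding gene on either strand. This rule used positions only and no binding value. It gave 290 of the 612 nuclear tRNA genes, in 226 host genes, and the other 322 tRNA genes were used for comparison. Of the 290, 283 overlapped introns only, 4 overlapped a 5′ UTR and 3 a 3′ UTR of their host. They covered 21 isotypes (3 had none assigned) and 120 distinct sequences.

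The assay was chromatin immunoprecipitation with an antibody against GFP followed by sequencing (ChIP-seq), in 2 biological replicates of 1 group. Both replicates were whole mixed-sex late embryos of strain OP622, with genotype unc-119(tm4063) III and the integrated transgene wgIs622, harvested 5 hours after the bleach that synchronizes eggs. GMEB-2 carried GFP and FLAG at its C terminus, and the promoter of the transgene is not given in the sources used here. No other genotype, stage or treatment was compared, and in whole embryos a site bound strongly in few cells and one bound weakly in many cannot be told apart. The peak lists hold no expression values, so the labelled stage was not checked against markers.

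RNA polymerase III transcribes tRNA genes from promoter elements within the gene itself. The factor TFIIIC binds these elements, the A box near the start and the B box near the end of the gene, and it places TFIIIB on the DNA just upstream of the start. Because the promoter is internal, a tRNA gene can lie in an intron of another gene and on either strand of it. GMEB-2 belongs to a family of DNA-binding proteins with a SAND domain, known in vertebrates for binding the glucocorticoid modulatory element.

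The B box word GTTCNANNC, where N is any base, was read on the strand of each tRNA gene. Of the 290 genes 279 held it (96.2%), against 1.23% of windows of 72 bases, the median tRNA gene length, tiled along both strands of the genome. The 4 genes shown here each represent a set of tRNA genes of identical sequence in which 1 copy had an IDR summit nearer to it than to any other tRNA gene and another copy had no joint summit. Their own bases therefore cannot tell the copies apart. Capitals mark the B box word.
ZK563.t1 (Thr, chrX:3371422-3371493, minus strand, an intron of ZK563.2): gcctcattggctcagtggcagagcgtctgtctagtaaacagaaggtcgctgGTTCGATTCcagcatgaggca
T28B4.t1 (Phe, chrX:6593596-6593668, plus strand, an intron of fbxl-4): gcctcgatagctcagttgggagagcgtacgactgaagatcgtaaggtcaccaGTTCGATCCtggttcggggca
R04A9.t1 (Gln, chrX:410391-410462, plus strand, an intron of ZK1193.2): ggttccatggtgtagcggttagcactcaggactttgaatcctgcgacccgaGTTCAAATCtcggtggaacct
F15B9.t1 (Ala, chrV:13003509-13003580, minus strand, an intron of inft-2): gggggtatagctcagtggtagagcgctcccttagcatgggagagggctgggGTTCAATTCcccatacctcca

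The 60 bases upstream of these copies, and of the copy with no peak in the list of both replicates together, do differ. They are shown in pairs, strong copy first, with the words CTCTT and AAAAA in capitals where present, because the later results on upstream sequence turn on them. An Ile pair is added, whose strong copy had the highest signal of all 290 genes. The copy without a peak was the first by name, a choice made after values were seen.
T21B4.t1 (Ile, chrII:12494681-12494740, plus strand, signal 479): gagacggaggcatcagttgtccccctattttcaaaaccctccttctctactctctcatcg
B0344.t1 (Ile, chrX:1590582-1590641, minus strand, no peak): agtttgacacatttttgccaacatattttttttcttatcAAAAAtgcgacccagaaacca
ZK563.t1 (Thr, chrX:3371494-3371553, minus strand, signal 331): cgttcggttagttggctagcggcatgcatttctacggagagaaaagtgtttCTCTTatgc
ZK994.t3 (Thr, chrV:8496176-8496235, minus strand, no peak): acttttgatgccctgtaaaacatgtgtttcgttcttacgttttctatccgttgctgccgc
T28B4.t1 (Phe, chrX:6593536-6593595, plus strand, signal 304): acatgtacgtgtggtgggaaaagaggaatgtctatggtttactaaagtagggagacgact
F22B7.t4 (Phe, chrIII:8653681-8653740, minus strand, no peak): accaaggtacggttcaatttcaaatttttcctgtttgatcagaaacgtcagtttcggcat
R04A9.t1 (Gln, chrX:410331-410390, plus strand, signal 282): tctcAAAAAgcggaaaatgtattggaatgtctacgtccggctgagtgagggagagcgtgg
H08J11.t4 (Gln, chrX:9091169-9091228, minus strand, no peak): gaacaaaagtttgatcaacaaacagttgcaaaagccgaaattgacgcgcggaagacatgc
F15B9.t1 (Ala, chrV:13003581-13003640, minus strand, signal 232): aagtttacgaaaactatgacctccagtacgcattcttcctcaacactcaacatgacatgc
C56G3.t1 (Ala, chrX:7378856-7378915, minus strand, no peak): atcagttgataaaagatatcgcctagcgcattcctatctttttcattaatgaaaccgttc

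Binding was read from 4 deposited peak lists on ce11. The authors' IDR list keeps peaks by their irreproducible discovery rate, a measure of agreement in rank between replicates, and held 634 peaks. Relaxed lists of 30000 peaks each came from replicate 1, from replicate 2 and from both together (the joint list), and they include weak peaks and background. A tRNA gene had a summit when a peak's highest point lay within 200 bp of its body, and its value was the highest signal among such peaks. Signal is the authors' own value for a peak, so it is compared within a list only. Signal ran from 91.8 to 1083 in the IDR list. All 634 IDR intervals matched those of highest signal in the joint list, so having an IDR summit here equals passing a level of joint signal. For each replicate alone, the 634 strongest peaks of its own relaxed list gave a call of the same size.

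In the IDR list 99 of the 290 genes had a summit (34.1%, 95% exact interval 28.7% to 39.9%). The same window caught an IDR summit at 2.03% of all 46890 nuclear genes, whose lengths vary. Of 3155 other noncoding RNA genes inside protein-coding gene bodies and over 400 bp from a tRNA or snoRNA gene, 0.887% had one. Each replicate alone gave a similar share. Among the strongest peaks of replicate 1, 85 genes had a summit (29.3%, against 1.94% of all genes), and among those of replicate 2, 94 did (32.4%, against 2.04%). In both of these sets 75 genes had one, and all 75 were among the 99. The share of all nuclear genes in both sets was not computed, and it cannot exceed the 1.94% of replicate 1.

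In the joint relaxed list 204 genes had a summit (70.3%), against 30.5% of all nuclear genes and 31.5% of the other noncoding RNA genes. Replicate 1's relaxed list served 196 genes (67.6%, against 31.6% and 28.6%), and replicate 2's served 198 (68.3%, against 31.5% and 30.4%). In both replicates' relaxed lists 168 genes (57.9%) had a summit, 28 only in replicate 1 and 30 only in replicate 2. No summit in any list was found at 63 genes. Shares of all nuclear genes in both replicates, in 1 only or in no list were not computed. The share in both cannot exceed the 31.5% of replicate 2, and the other counts have no such reference. Beyond the 99, 105 genes had a joint summit outside the IDR list, with signal from 26.3 to 90.7 and a median of 57.6, and 68 of these had one in both replicates. The intervals treat genes as independent, although 96 distinct IDR peaks served the 99 genes and 3 peaks served a pair each.

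**Figure D1:**
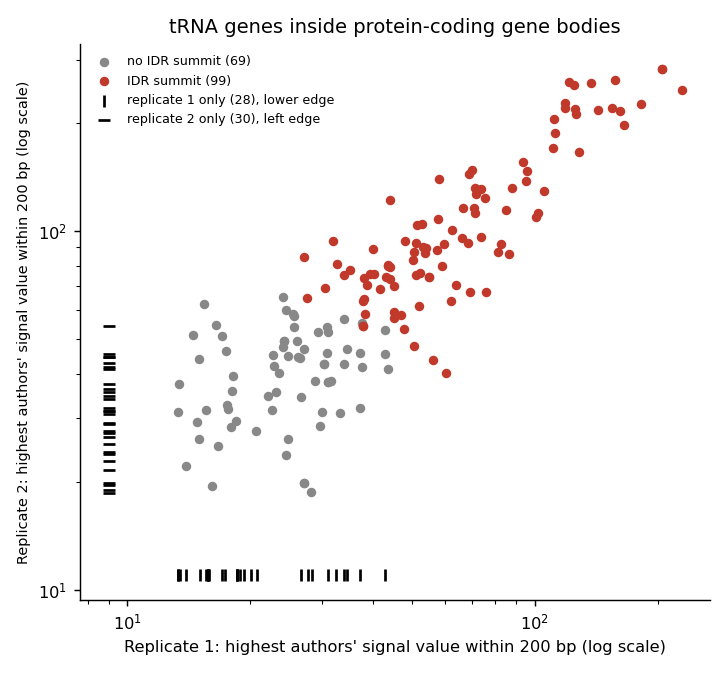
Highest signal value within 200 bp of each tRNA gene in the relaxed list of replicate 1 (x axis, log scale) and replicate 2 (y axis, log scale), 1 point per gene, with IDR genes in red. Genes with a summit in 1 replicate only are ticks at the edges. The 99 red points lie toward the upper right and the genes seen in 1 replicate lie low.

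Signal ranked the genes in much the same order in both replicates. Over the 168 genes with both values, Spearman's rho was 0.862 and Pearson's r of log2 signal 0.879, given as a description because neighbouring genes share peaks. Genes seen in replicate 1 only reached a signal of at most 42.8, and those in replicate 2 only at most 54.3. All 99 IDR genes were in both relaxed lists, and their lowest values there were 27.1 and 40.1. Within the IDR list the 99 genes held ranks from 15 to 606, with a median of 262 of the 634 peaks.

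The strongest gene was T21B4.t1 (Ile, chrII:12494741-12494814), in an intron of the collagen gene col-85 on the opposite strand. Its joint signal was 479, with 229 in replicate 1 and 247 in replicate 2. Next came F15G9.t1 and F15G9.t2, an Ala pair in 1 intron of him-4, which encodes the extracellular matrix protein hemicentin. The pair shared a summit of signal 477, with 205 in replicate 1 and 282 in replicate 2. It lay 57 bp into F15G9.t1 and 101 bp before F15G9.t2. B0523.t1 (Trp), inside fli-1, the worm flightless homolog, had 427, with 157 and 263 in replicates 1 and 2. C06G1.t1 (His), inside C06G1.1, had 412, with 182 and 225.

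C28G1.t1 (Glu) overlapped the 5′ UTR of C28G1.2, 97 bp from the host's annotated 5′ end, and had a joint signal of 397, with 137 and 259 in replicates 1 and 2. C02B4.t2 (Tyr) inside the nuclear hormone receptor gene nhr-17 had 386, with 121 and 259. F17H10.t1 (Gly) inside the sorting nexin gene snx-17 had 384, with 162 and 216. These hosts differ in function, and the strongest 12 genes included hosts on the same strand and on the opposite strand. ZC455.t1 (Ser) in ZC455.1 had 375, with 155 and 220. F41D9.t3 (Asn) inside sulp-3, a gene of the sulfate permease family, had 373, with 125 and 255. K06A4.t1 (Ala), a sequence with no other copy in an intron of 115 bp in the sugar transporter gene swt-5, had 360, with 143 and 217.

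The remaining member of the strongest 12 was C37A2.t1 (Cys) in an intron of the cyclin E gene cye-1, with a joint signal of 373 and replicate values of 166 and 197. Its nearest tRNA gene lay 497481 bp away. At the weak end of the IDR list, the divergent Pro genes ZK970.t2 and ZK970.t3 in 1 intron of the receptor guanylate cyclase gene gcy-4 shared a summit of signal 94.2, with 37.9 and 54.4 in the replicates. F56F4.t1 (Tyr) in the peptide transporter gene pept-3 had 96.0, with 50.5 and 47.7. Y39B6A.t10 (Glu) in cpg-23 had 96.8, with 38.4 and 58.6, and F52H2.t1 (Asp) in the amino acid transporter gene aat-3 had 97.1, with 27.6 and 65.1.

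Bound genes were spread over isotypes, the amino acids that tRNAs carry. IDR summits were found for 20 of the 21 isotypes, and the exception was the single selenocysteine tRNA gene. Phe had the highest share with 5 of 6 genes, followed by Glu with 8 of 12. Pro had 4 of 22, Ser 3 of 15 and Ile 4 of 18. The order was not kept outside protein-coding bodies, where Phe had 1 of 8, Glu 11 of 29, Pro 11 of 20, Ser 7 of 24 and Ile 4 of 11. With 6 to 27 inside genes for each of the 20 isotypes, no share was tested. Strongest for their isotypes besides those above were F38G1.t2 (Asp, in the FGF gene egl-17) at 345, T15B12.t1 (Met) at 342 and F29C4.t1 (Arg, in the collagen gene col-99) at 338. ZK563.t1 (Thr), T28B4.t1 (Phe) and R04A9.t1 (Gln), whose sequences are given above, had 331, 304 and 282. F14B8.t1 (Leu) had 204, F22G12.t1 (Val) 202, K04C2.t3 (Lys) 163 and F14B4.t2 (Pro) 123.

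At most genes the summit lay over the tRNA gene itself. Positions were taken per gene, along the tRNA strand from its 5′ end, so a shared summit counts once for each gene. Over the 99 IDR genes the median position was 14 bp, with quartiles at 3.5 and 39 bp. The summit fell within the body at 75 of these genes (75.8%), upstream at 19 and downstream at 5. The range ran from 101 bp before the 5′ end to 111 bp after it. The upstream extreme was F15G9.t2, whose summit lies within the body of F15G9.t1. With each summit given only to its nearest tRNA gene, the median stayed at 14 bp. At tRNA genes outside protein-coding bodies the median was 16 bp, and the summit fell within the body at 65 of 102 genes. The inside and outside genes together were served by 185 distinct IDR peaks, so shared summits can lower these within-body shares. The shares were not recomputed per peak. Each replicate's strongest peaks gave a median of 10 bp in replicate 1 and 13 bp in replicate 2.

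**Figure D2:**
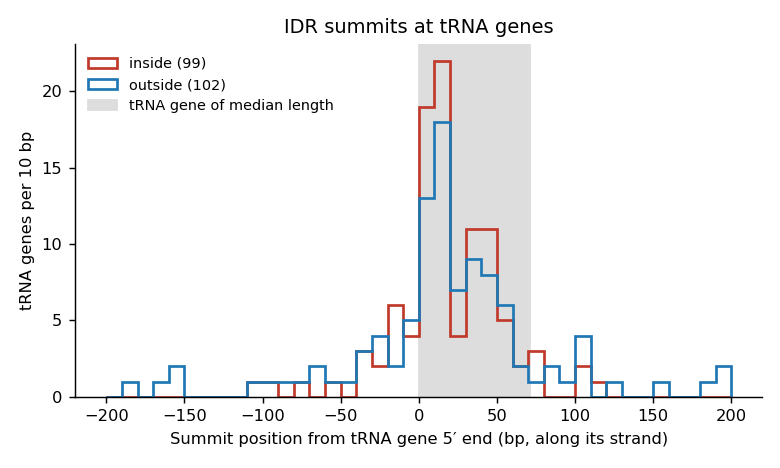
IDR summit positions from the tRNA gene 5′ end along its strand (x axis, bp) as genes per 10 bp (y axis), inside (red, 99 genes) and outside (blue, 102 genes) protein-coding bodies, with the median gene length shaded. Both distributions rise at the 5′ end, with medians of 14 and 16 bp.

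Genes inside protein-coding bodies had IDR summits about as often as those outside. The shares were 34.1% of 290 and 31.7% of 322 (102 genes, 26.6% to 37.1%), a difference of 2.46 percentage points. With replicate 2 alone the difference was 0.116 points, and with replicate 1 alone it was -0.814 points, so the direction was not stable. In the joint relaxed list the inside share was 70.3% and the outside share 61.5%. Median IDR signal was 150.1 inside and 185.5 outside. Over all genes with a joint summit it was 89.9 inside and 95.9 outside. The strongest peaks of each replicate alone also had lower medians inside, by 5.49 in replicate 1 and by 16.8 in replicate 2, each on its own scale.

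Chromosome moved with that signal gap. On X, which held 96 inside and 180 outside genes, the shares with an IDR summit were 33.3% and 33.9% and the median signals 209.8 and 195.4. On the autosomes the shares were 34.5% and 28.9% and the median signals 142.1 and 152.7. Over all genes with a joint summit the order was the other way round. There the medians on X were 99.2 inside and 124.2 outside, and on the autosomes 86.5 and 74.2, with the same order in each replicate's relaxed list. No stable order of signal between inside and outside genes was therefore seen within either. In the IDR and joint lists both groups had their higher median signal on X, where most of the outside genes lie. In replicate 1's relaxed list the inside medians were 37.3 on X and 37.6 on the autosomes. The median IDR signal of peaks away from any tRNA gene was 123.9.

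The strand of the host made no stable difference to the share. Of 166 genes on the strand of their host, 59 had an IDR summit (35.5%, 28.3% to 43.3%). Of 123 on the opposite strand, 40 did (32.5%, 24.4% to 41.6%), and the 1 gene with hosts on both strands did not. Replicate 1 alone gave 28.3% and 30.9%, and replicate 2 alone 33.1% and 31.7%, so the replicates pointed opposite ways. Same-strand genes had the higher share on the autosomes (38.3% against 29.5%) and the lower on X (29.4% against 37.8%). Median IDR signal was 145.9 on the same strand and 197.8 on the opposite strand, but over all genes with a joint summit the medians were 91.5 and 90.0. In replicate 1's relaxed list they were 37.5 and 37.6, and in replicate 2's 55.7 and 58.2.

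Position within the host likewise gave no clear order. Distance to the host's 5′ end ran from 97 to 26182 bp with a median of 2452.5 bp. Of 76 genes within 1000 bp of it, 24 (31.6%, 21.4% to 43.3%) had an IDR summit, and of 214 farther away 75 did (35.0%, 28.7% to 41.8%). With a limit of 500 bp the difference turned from -3.47 to 2.25 percentage points. With the host's length cut into 5 equal stretches from its 5′ end, the shares were 27.5%, 31.3%, 31.7%, 43.5% and 36.2%. Host promoters were read from 1000 bp before to 500 bp after the host's 5′ end, leaving out summits within 200 bp of a tRNA gene. By this measure 3 genes had a host with an IDR summit. The share over all protein-coding genes was not computed. None of the 3 had an IDR summit itself (interval 0% to 70.8%), and 3 genes are too few to compare.

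Intron length gave a larger gap, found after the values were seen. In introns of up to 1000 bp 77 of 205 genes (37.6%, 30.9% to 44.6%) had an IDR summit, and in longer introns 18 of 78 did (23.1%, 14.3% to 34.0%). Replicate 1 alone gave 31.7% and 20.5%, and replicate 2 alone 35.1% and 23.1%. The gap of -14.5 percentage points narrowed to -2.83 when 500 bp divided short from long. Of the 7 genes that overlapped a UTR, 4 had an IDR summit.

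**Figure D3:**
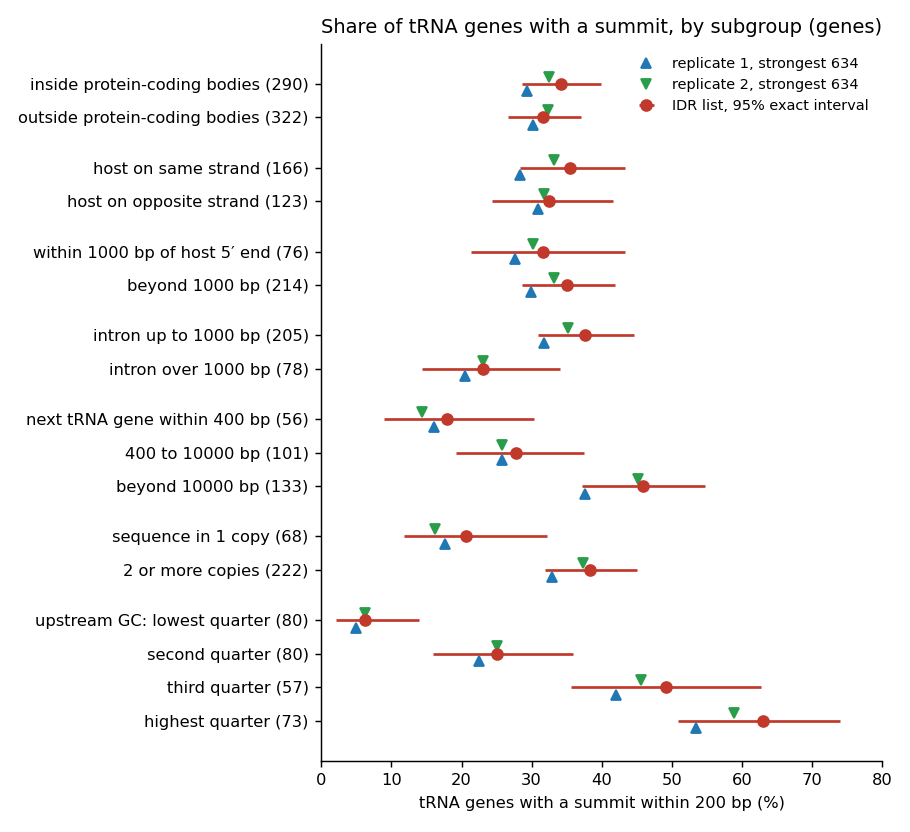
Share of tRNA genes with a summit (x axis, %) in subgroups (y axis, number of genes in parentheses): IDR list with its 95% exact interval over genes (red), strongest 634 peaks of replicate 1 (blue) and of replicate 2 (green). Inside and outside, and host strands, overlap, while shares climb with distance to the next tRNA gene and with upstream GC from 6.25% to 63.0%.

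Genes far from other tRNA genes had IDR summits more often than clustered ones, a comparison chosen after values were seen. With the nearest tRNA gene within 400 bp, 10 of 56 genes had an IDR summit (17.9%, 8.91% to 30.4%). The share was 27.7% (28 of 101) at 400 to 10000 bp and 45.9% (61 of 133, 37.2% to 54.7%) beyond 10000 bp. Replicate 1 alone gave 16.1%, 25.7% and 37.6%, and replicate 2 alone 14.3%, 25.7% and 45.1%. The order held on X (19.2% within 400 bp, 56.2% beyond 10000 bp) and on the autosomes (16.7% and 42.6%). Outside protein-coding bodies the shares were 31.9%, 25.2% and 39.0%. The joint relaxed list, which includes weak peaks, gave no steady rise among the inside genes either, at 69.6%, 59.4% and 78.9%. On the autosomes it served 24 of 30 genes with a neighbour within 400 bp and 79 of 101 (78.2%) beyond 10000 bp. Sequence repetitiveness moved with distance. The median share of unique 36-base words was 84.2% around genes with a close neighbour, 88.4% at the middle distance and 89.0% around isolated genes, and on the autosomes 80.4% against 89.0% for the nearest and farthest groups. Its part in the result was not tested.

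Hosts with several tRNA genes show the low end of that range. Of 14 hosts with at least 3 tRNA genes, 9 had no IDR summit at any of them and 5 had it at 1. K01A12.3 held 5 tRNA genes (Arg and Cys) within 930 bp and had no IDR summit, but 3 of the 5 were near a joint peak of signal 86.1. The apical junction gene ajm-1 held 5 Gln genes within 1002 bp. Of these only H08J11.t3 had an IDR summit, at 111.1, with 34.1 and 75.4 in the replicates, and the other four had no joint summit. In unc-58, a potassium channel gene, T06H11.t2 (Arg) reached 216, with 87.6 and 131 in the replicates. Its identical copy T06H11.t3, 221 bp away on the other strand, had 63.3, with 26.7 and 34.5.

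Joint summits were missing from all 3 tRNA genes of pash-1, which encodes a microRNA processing factor, and from all 3 of the peroxidasin gene pxn-1. Single IDR genes were K04C2.t3 in brd-1 at 163, K11E4.t6 in pix-1 at 100.2 and C17D12.t3 in the sperm protein gene spe-9 at 100.9. The Hedgehog-related gene wrt-9 held 3 identical Ile genes within 915 bp, of which only B0344.t2 had a joint summit, at 28.5. No IDR summit was found in deg-1 (3 Asn genes), nimk-1, srv-16, srxa-9 or tbc-12, whose highest joint signals were 34.7, 64.3, 90.7, 52.6 and 74.1. The first genes in chromosome order with no summit in any list were Y18H1A.t1, Y95B8A.t1, Y39G10AL.t1, T22C1.t1, F53B6.t1 and T22A3.t4. The 100 bases upstream held 66% GC at F53B6.t1 and 29% to 38% at the other five.

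Copies of identical sequence were bound very unequally. Among the 290, 20 sets of 4 or more genes share 1 sequence, 160 genes in all. Every one of the 20 sets held genes with and without an IDR summit, and 17 of them held an IDR gene beside a gene with no joint summit. Of all 290 genes 34.1% had an IDR summit and 86 had no joint summit. Whether sets of the same size but unlike sequence are less mixed was not tested. The ratio of highest to lowest joint signal within a set ran from 3.01 to 16.8 with a median of 5.22, counting only genes with a joint summit. A summit within 200 bp can lie nearer to a neighbouring tRNA gene, of the same or of another sequence, as for 13 of the 290 genes. With each summit given only to its nearest tRNA gene, the ratios ran from 3.01 to 16.8 with a median of 5.25, and all 20 sets still held genes on both sides of the IDR level. These ratios are descriptions, and reads that match several copies could be placed at any of them. How the authors placed such reads is not given in the sources used here, and 226 of the 290 genes held no unique 36-base word in their bodies. In windows reaching 200 bp beyond each gene a median of 88.8% of such words was unique at IDR genes and 88.4% at the others.

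The 13 Ile genes identical to T21B4.t1 ranged from its 479 down to 28.5 at B0344.t2, and 5 had no joint summit. The 9 Thr genes identical to ZK563.t1 ranged from 331 to 38.1 at R04D3.t5, with ZK994.t3 at none. Of 8 Gln genes, R04A9.t1 had 282 and C13B4.t1 70.7, and 3 had no joint summit. Of 6 Ala genes, F15G9.t2 lay near the summit of 477 that falls in F15G9.t1, which has another sequence, and the joint summit nearest to F15G9.t2 itself had 43.5. The strongest Ala copy with its own summit was F15B9.t1 in inft-2 at 232, and C52E12.t3, in the kinesin gene unc-104, had 90.0. All 11 Asn genes identical to F41D9.t3 had a joint summit within 200 bp, from 373 to 34.7 at ZK154.t5, whose summit ZK154.t2 shares. The 11 Pro genes went from 94.2 at ZK970.t2 to 31.2 at Y71H2AM.t1, and 1 of them was in the IDR list. Phe ran from 304 at T28B4.t1 to 99.9 at ZC412.t1, and 4 of the 5 Phe genes were in the IDR list.

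**Figure D4:**
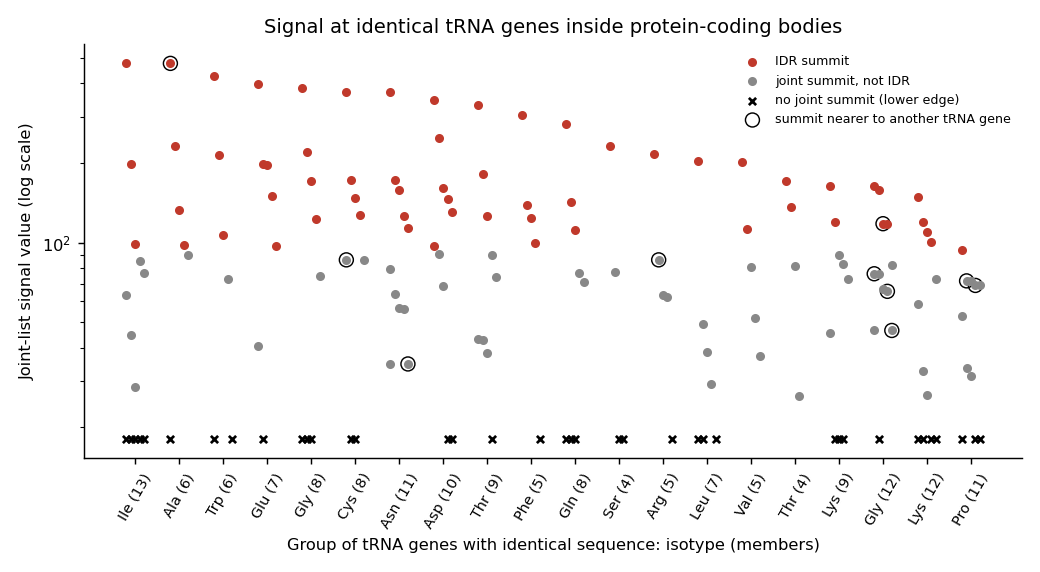
Joint-list signal (y axis, log scale) at each gene of the 20 sets of 4 or more identical tRNA genes (x axis, isotype and number of genes), with IDR genes in red, other joint summits in grey genes without a joint summit as crosses at the lower edge, and circles around genes whose summit lies nearer to another tRNA gene. Red points occur in every set beside grey points or crosses.

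Sequences present once in the genome's tRNA genes had IDR summits less often than repeated ones, 14 of 68 (20.6%, 11.7% to 32.1%) against 85 of 222 (38.3%, 31.9% to 45.0%). Replicate 1 alone gave 17.6% and 32.9%, and replicate 2 alone 16.2% and 37.4%. The comparison by copy number was also chosen after values were seen. Copy number moved with sequence repetitiveness. The median share of unique 36-base words in the body was 73.5% for single-copy sequences and 0% for repeated ones. In windows reaching 200 bp beyond the gene it was 96.1% and 88.1%. The part of read placement in the gap was not tested. Of the 99 IDR genes 95 held the B box word, and of the 11 genes without it 4 had an IDR summit (36.4%, 10.9% to 69.2%). Genes with the word had 34.1%, and 11 genes are too few to tell whether the word separates the groups.

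The bases upstream of the gene differed most between genes with and without an IDR summit, in a comparison chosen after the values were seen. GC content of the 100 bases before the 5′ end was 47.4% ± 6.33 (SD, n = 99 genes) with an IDR summit and 39.5% ± 7.77 (SD, n = 191 genes) without, against 35.4% for the genome. With the strongest peaks of replicate 1 it was 47.2% and 40.1%, and with those of replicate 2 47.3% and 39.7%. Bodies did not differ in this way, with 58.6% GC at IDR genes and 58.7% at the others. The 100 bases downstream held 33.7% and 31.8%. Genes with no joint summit had 37.5% GC upstream.

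By upstream GC the share with an IDR summit rose at every step. Up to 37% GC it was 5 of 80 genes (6.25%, 2.06% to 14.0%), above that and up to 43% it was 20 of 80, above that and up to 47.75% it was 28 of 57 (49.1%), and above 47.75% it was 46 of 73 (63.0%, 50.9% to 74.0%). Replicate 1 alone gave 5.00%, 22.5%, 42.1% and 53.4%. Replicate 2 alone gave 5 of 80, 20 of 80, 45.6% and 58.9%. Among the 99 IDR genes Spearman's rho between upstream GC and signal was 0.018, given as a description across genes.

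The difference was as large where no host exon lay upstream. Genes with no protein-coding exon base in those 100 bases had 47.3% GC with an IDR summit (70 genes) and 38.5% without (139 genes). Outside protein-coding bodies, where exon bases were nearly absent, the values were 45.7% ± 6.53 (SD, n = 102 genes) and 38.4% ± 7.64 (SD, n = 220 genes). In steps of 10 bases the gap between the means was widest 50 bases before the gene, at 51.3% against 38.2%. Farther upstream the order turned in some steps, with 33.7% against 37.5% at 170 bases before the gene. Over the body the means lay close together. GC content also affects how DNA fragments are amplified and sequenced, and its part in the peak calls was not tested.

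**Figure D5:**
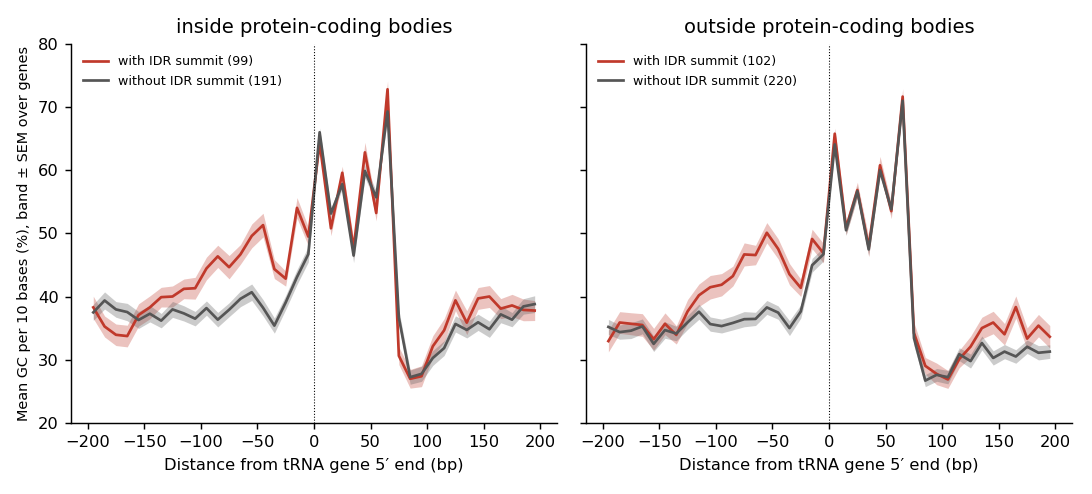
Mean GC content per 10 bases (y axis, %) against distance from the tRNA gene 5′ end (x axis, bp) for genes with (red) and without (grey) an IDR summit, inside (left) and outside (right) protein-coding bodies, with bands of 1 SEM over genes. Red lies above grey over the 100 bases before the gene in both panels, below it in some bins farther upstream, and close to it over the body.

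Short words in the 60 bases upstream gave a further contrast. All 1024 words of 5 bases were counted on the tRNA strand, and the word with the largest gap in each direction was taken from the 290 genes. CTCTT stood before 28 of the 99 IDR genes (28.3%) and 14 of the 191 others (7.33%). The next word by gap, CTCTC, can overlap with it and stood before 27 IDR genes (27.3%) and 15 others (7.85%). At the other end AAAAA stood before 3 IDR genes (3.03%) and 44 others (23.0%). Among upstream windows of all nuclear genes, 8.22% held CTCTT and 34.8% held AAAAA. Like the sequences shown above, individual genes departed from this: R04A9.t1 has AAAAA and a strong peak, and T21B4.t1 has neither word.

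Read the other way, 66.7% of the 42 genes with CTCTT had an IDR summit (50.5% to 80.4%), against 28.6% of the 248 without. Of the 47 genes with AAAAA 6.38% had one (1.34% to 17.5%), against 39.5% of the 243 without. Both words were picked by their gap in these same genes. These shares and intervals do not allow for that choice, so they cannot test the words. The tRNA genes outside protein-coding bodies were not used to pick the words. There 63.0% of 46 genes with CTCTT had an IDR summit against 26.4% of 276 without, and 11.8% of 51 with AAAAA against 35.4% of 271 without. CTCTT lay at no fixed place, starting 8 to 59 bases before IDR genes with a median of 37.5.

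Word, neighbours and copy number were also read within genes of like upstream GC, split at the median of 43%. Among the 146 genes at or above it, 24 of 29 with CTCTT had an IDR summit (82.8%) and 54 of 117 without (46.2%). Below it, 4 of 13 with CTCTT did (30.8%) and 17 of 131 without (13.0%). Of isolated genes, with the next tRNA gene beyond 10000 bp, 51 of 85 at high GC and 10 of 48 at low GC (20.8%) had one. Of genes with a neighbour within 400 bp, 7 of 19 (36.8%) and 3 of 37 (8.11%) did. Isolated genes also had the higher mean upstream GC, at 44.3% against 39.7%. Repeated sequences had 56.8% and 17.3% at high and low GC, and single-copy sequences 39.3% and 7.50%. Each of these gaps kept its direction within both GC groups and in each replicate alone, with as few as 13 genes in a cell. CTCTT was picked on these same genes, so neither its gap here nor the direction it kept is independent of that choice. Outside protein-coding bodies, isolated genes and genes with a close neighbour had 57.1% and 61.5% at high GC, and 18.4% and 20.6% at low GC. Replicate 1 alone gave 55.4% and 65.4%, then 18.4% and 16.2%. Replicate 2 alone gave 60.7% and 53.8%, then 22.4% and 17.6%, so no stable direction was seen there. Shared summits can raise the outside shares of genes with a close neighbour. These shares were not recomputed with each summit given to its nearest tRNA gene, so they cannot settle the order outside.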

How the data were processed

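GMEB-2-GFP ChIP-seq was measured in 2 biological replicates of late embryos. The authors deposited peak lists with 1 signal value per peak, each list on its own scale. Per the deposited listing, relaxed lists were made for each replicate and for both together against a control alignment, and the IDR list from these. Not given in the sources used here were the peak caller, aligner, IDR threshold and treatment of reads with several matches. The lists hold no read counts, so depth is unknown, and intervals (95% exact Clopper-Pearson) cover counting over genes only. Labels for replicate 2 name 2 sequencer models and those for replicate 1 none.

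Genes came from Ensembl release 115 on WBcel235 and isotypes and sequence from the RefSeq annotation and genome of that assembly, whose chromosome lengths match ce11. Joins used Python 3.11.15, pandas 2.3.3, numpy 2.4.6 and scipy 1.17.1, and were tested on simulated data with known distances. Where several bodies contained a tRNA gene, host distances used the smallest. With 1 group no comparison between conditions was possible and no test was run, so differences are descriptions read against each replicate's own value.

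The tRNA genes and lists were chosen with earlier results of these data known. Named genes are the 12 highest and 5 lowest IDR signals, the strongest gene of each isotype, hosts with at least 3 tRNA genes, extremes of identical sets (part of these) and 6 genes with no summit, while F15B9.t1 and the unbound copies shown were chosen after values were seen. Alternatives changed the window, the overlap rule, the list, the replicates and the member set. Build ce10 lists were not used.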

Additional observations from a re-analysis of the deposited data

How the results depend on the processing

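Each difference is in percentage points unless a signal or a position is named. The share inside minus outside protein-coding bodies was 2.46, and it moved to 4.60 with a window of 100 bp, 5.68 with summits inside the gene body, 3.70 with overlapping peak intervals, 5.46 with each summit given to its nearest tRNA gene and -3.19 in the 317 strongest IDR peaks. Without 1 replicate it ran from -0.814 to 0.116. Same-strand minus opposite-strand share (3.02) was 8.38 with summits inside the body and -0.0539 in the 317 strongest peaks, and without 1 replicate it ran from -2.58 to 1.43. Near minus far share (-3.47) was -3 at 100 bp, -2.95 inside the body, -2.07 with nearest genes, -1.76 in the 317 strongest peaks, -4.04 for genes that overlap no exon, 2.25 with a host window of 500 bp and -6.57 with 2000 bp, and ran from -2.91 to -2.28 without 1 replicate. The causes were not tested.

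The number of genes with an IDR summit (99) fell to 61 in the 317 strongest peaks, which is a shorter list, and was 85 to 94 without 1 replicate. Genes with a summit in both replicates (168) numbered 64 with summits inside the body, a narrower window. Median signal inside minus outside (-35.4) was -15.9 in the 317 strongest peaks. Without 1 replicate it was -16.8 to -5.49 on the scales of the replicates' own lists, so only the sign can be compared. The median summit position (14 bp) was 10 to 13 bp without 1 replicate.

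Settings for the next results were chosen after seeing the data. The upstream GC difference (7.86) was 4.18 over 200 bases and 8.77 without exons, and 7.07 to 7.57 without 1 replicate. The isolated minus crowded share (28.0) was 37.0 on X, and 21.5 to 30.8 without 1 replicate. The one-copy minus multi-copy share (-17.7) was -21.2 to -15.2 without 1 replicate. The long minus short intron share (-14.5) was -2.83 at 500 bp and -15.8 at 2000 bp, and -12.0 to -11.2 without 1 replicate. The median ratio within identical sets (5.22) was 4.41 to 4.96 without 1 replicate. No paired analysis was possible because the 2 replicates belong to 1 group. Unknown depth, the 2 replicates and the unstated placement of reads that match several tRNA genes limit all values.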
